A study of Homo sapiens with 4 samples.

Results

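The collagen genes are described here in PC3 and DU145, 2 established human prostate cancer cell lines that grow without androgen, with and without knockdown of ESS2, which encodes a nuclear protein. The genes were taken by symbol, as every probe whose accession matched a gene named COL, a number of 1 or 2 digits, A and a final digit, with antisense RNAs and pseudogenes left out. This gave 44 genes on 57 probes, of 25121 genes with a symbol. The rule uses symbols and no measured value. Each of the 4 groups had 1 array (n = 1), so a difference inside a line has no replicate check and carries no p-value. PC3-shC and DU145-shC cells carried a control shRNA, given as an shRNA against luciferase in the sample labels, and PC3-shESS2 and DU145-shESS2 cells carried an shRNA against ESS2. The labels describe lentiviral delivery, whereas the methods describe, for PC3, shRNA plasmid transfection followed by puromycin selection. Both groups of a line went through the same procedure. All cells were cultured in RPMI1640 with serum, and 0.1 µg of total RNA was labelled with Cy3 for each array. How precise any value is depends on this small number of arrays.

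Collagens are matrix proteins built from 3 chains wound into a triple helix, and the chains of a trimer come from 1 gene or from several. Fibrillar collagens make the banded fibres of connective tissue, type IV collagens make the sheet of the basement membrane under epithelia, type VI makes beaded filaments, and the FACIT collagens sit on fibres made by others. In tissue, fibroblasts are the main source of fibrillar collagen, while epithelial cells produce mostly basement membrane chains.

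ESS2 itself had a processed signal of 133 in PC3-shC and 53.6 in PC3-shESS2 cells, and of 85.7 in DU145-shC and 17.3 in DU145-shESS2 cells, a log2 ratio of -1.45 in PC3 and -2.35 in DU145. CTNNA1, known to be deleted in PC3, was dim in PC3, not well above background on its arrays, and read 4320 on the DU145-shC array. All 5 epithelial markers (KRT8, KRT18, EPCAM, CDH1 and CLDN4) were well above background on every array, whereas the prostate luminal marker KLK3 was so on none. Of 8 fibroblast markers, 4 were above background on each PC3 array and 2 on each DU145 array, and DCN, PDGFRA and THY1 on none. The 75th percentile of the signal, to which each array was scaled, lay between 212 and 290, and 50.8 to 52.6% of the spots were well above background, the scanner software's own call. Both arrays of a line shared 1 slide and scan, so line, slide and scan cannot be told apart. The median SD of the log2 ratio between single spots of probes printed several times was 0.079 in each knockdown comparison and 0.08 between the lines, rising to between 0.235 and 0.283 where the dimmer array read under 50. This spread covers neither the hybridization nor the cells.

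Of the 44 collagen genes, 34 were detected by their brightest probe, that is, well above background, on at least 1 array, 22 on all 4 and 10 on none. Each array detected a similar number, 29 on PC3-shC, 28 on PC3-shESS2 and 26 on each DU145 array, and 64.2 to 65.6% of all genes with a symbol were detected per array. All 6 type IV genes and 9 of 10 FACIT genes were detected somewhere, compared with 7 of 11 fibrillar genes and 3 of 5 type VI genes. The 10 undetected genes were COL1A2, COL3A1, COL5A3, COL6A5, COL6A6, COL11A1, COL22A1, COL23A1, COL25A1 and COL28A1. COL1A2 encodes the partner of the COL1A1 chain in type I collagen, the main protein of bone and skin, and its probe was printed in 10 spots. The median of those spots was 2.23, 2.28, 2.22 and 2.04 on PC3-shC, PC3-shESS2, DU145-shC and DU145-shESS2, and 1 spot in all, on PC3-shC, was well above background. COL1A1 was well above background on all 4 arrays, at 265, 197, 84.7 and 75.4 in the same order. The plot of collagen levels on the 4 arrays gives each detected gene, with the filled and open marks telling detected from undetected values.

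**Figure D1:**
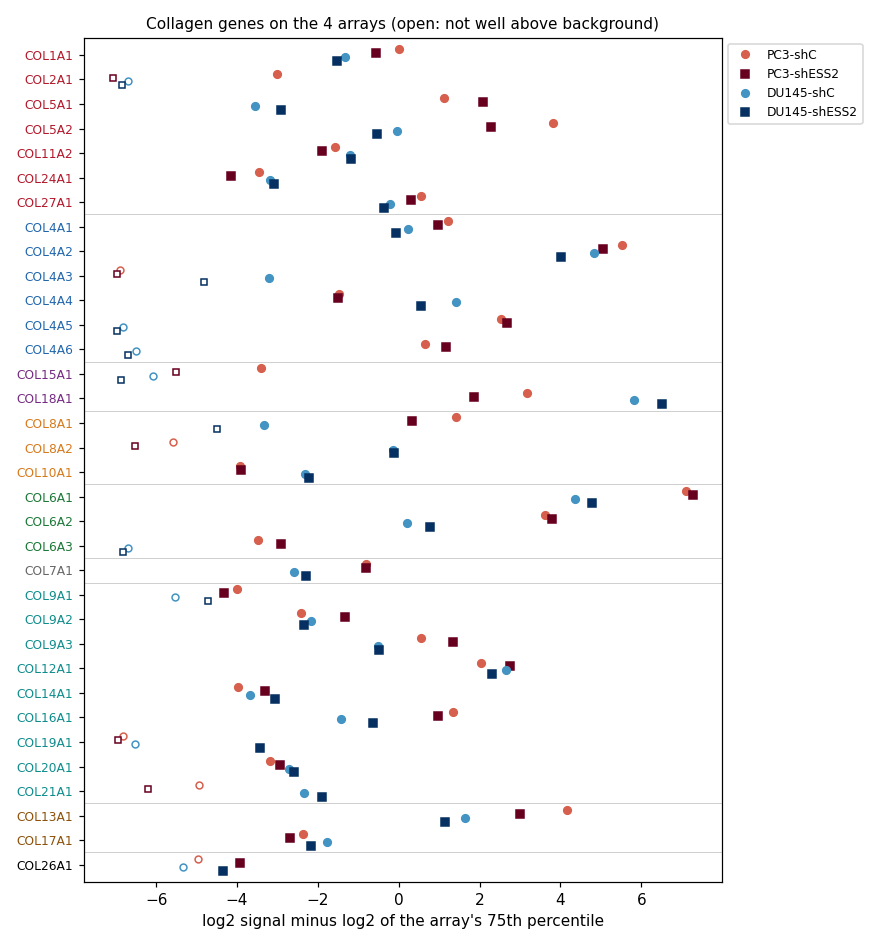
Level of the 34 collagen genes detected on at least 1 array, as log2 signal minus log2 of the array's 75th percentile (x axis), 1 point per array and with gene names coloured by class. Filled marks are well above background and open marks are not. COL4A5 and COL4A6 have filled points in PC3 (red) and open points in DU145 (blue). Positions along the axis compare arrays for 1 gene, not genes with each other.

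The basement membrane chains of type IV are taken first. In the human genome their genes lie head to head in pairs, COL4A1 with COL4A2, COL4A3 with COL4A4, and COL4A5 with COL4A6, each pair transcribed in opposite directions from a common stretch of DNA. The promoter windows of 1 gene of each pair are shown because the partners' windows overlap. Each window runs from 250 bases before to 50 bases after the RefSeq start on GRCh38.p14, on the plus strand, and capitals mark the bases that also belong to the partner's window.
COL4A2, chr13:110307034-110307333, partner COL4A1: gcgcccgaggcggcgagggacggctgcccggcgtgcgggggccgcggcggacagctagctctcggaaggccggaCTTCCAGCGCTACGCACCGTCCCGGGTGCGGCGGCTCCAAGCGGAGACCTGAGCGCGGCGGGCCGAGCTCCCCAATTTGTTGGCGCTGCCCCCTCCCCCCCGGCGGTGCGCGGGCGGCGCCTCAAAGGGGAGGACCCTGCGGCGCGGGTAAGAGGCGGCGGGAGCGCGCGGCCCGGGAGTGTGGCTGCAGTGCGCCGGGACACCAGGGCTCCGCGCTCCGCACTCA
COL4A3, chr2:227164374-227164673, partner COL4A4: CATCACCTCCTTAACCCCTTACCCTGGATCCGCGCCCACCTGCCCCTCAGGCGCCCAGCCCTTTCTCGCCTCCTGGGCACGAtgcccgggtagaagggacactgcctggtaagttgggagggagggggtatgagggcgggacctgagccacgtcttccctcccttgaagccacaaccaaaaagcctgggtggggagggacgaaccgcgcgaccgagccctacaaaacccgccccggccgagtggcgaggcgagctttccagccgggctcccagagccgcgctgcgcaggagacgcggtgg
COL4A5, chrX:108439588-108439887, partner COL4A6: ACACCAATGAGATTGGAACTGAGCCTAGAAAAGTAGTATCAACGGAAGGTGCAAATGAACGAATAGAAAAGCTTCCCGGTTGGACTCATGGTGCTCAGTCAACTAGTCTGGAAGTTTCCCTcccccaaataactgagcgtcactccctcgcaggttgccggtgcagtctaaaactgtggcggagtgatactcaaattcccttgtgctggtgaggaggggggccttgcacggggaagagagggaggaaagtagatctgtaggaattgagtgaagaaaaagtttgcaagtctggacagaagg
The starts of the partners lie 127, 419 and 380 bases apart in these 3 pairs, and 226, 82 and 121 of the 300 bases are shared. The COL4A2 window is 77.7% G or C, the COL4A3 window 67.7% and the COL4A5 window 49.3%. On both strands, the letters CCAAT occur 1 time in the COL4A2 window, 0 times in the COL4A3 window and 2 times in the COL4A5 window, and GGGCGG occurs 1, 2 and 0 times. TATAAA occurs in none of the 3, and the matches do not overlap. For comparison, CCAAT is found in 34.6%, GGGCGG in 45.0% and TATAAA in 11.5% of the 35116 promoter windows of the same length, and among 44 windows of 32 collagen genes in 14, 24 and 8. These letters are a description of the windows, not of binding.

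COL4A5 and COL4A6, whose chains occur in the basement membranes of kidney and smooth muscle, were detected in PC3 and not in DU145. COL4A5 read 1530 and 1860 on PC3-shC and PC3-shESS2, and 1.87 and 1.75 on DU145-shC and DU145-shESS2. COL4A6 read 410 and 654 in PC3 and 2.34 and 2.11 in DU145. Neither gene was well above background in DU145, so the difference between control cells is a bound, at least 142.6-fold for COL4A5 and at least 38.2-fold for COL4A6. The pair COL4A3 and COL4A4, whose chains make the filtering membrane of the kidney with COL4A5, went the other way. COL4A4 read 94.8 and 102 in PC3 and 564 and 322 in DU145, 7.38-fold lower in PC3-shC than in DU145-shC. COL4A3 read 22.8 on DU145-shC and was not well above background on the other 3 arrays (2.22, 2.31 and 7.69), at least 3.16-fold lower in PC3-shC. COL4A1 and COL4A2, which make the trimer found in nearly every basement membrane, were detected on all 4 arrays. COL4A1 read 609, 564, 250 and 209, and COL4A2 read 12000, 9700, 5990 and 3510, in the order of the arrays above. Both were higher in PC3-shC than in DU145-shC by less than 2-fold, with log2 ratios of 0.97 and 0.69. For COL4A3, COL4A5 and COL4A6 the direction was fixed by their being detected in the control cells of 1 line alone, while COL4A1, COL4A2 and COL4A4 were measured in both.

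**Figure D2:**
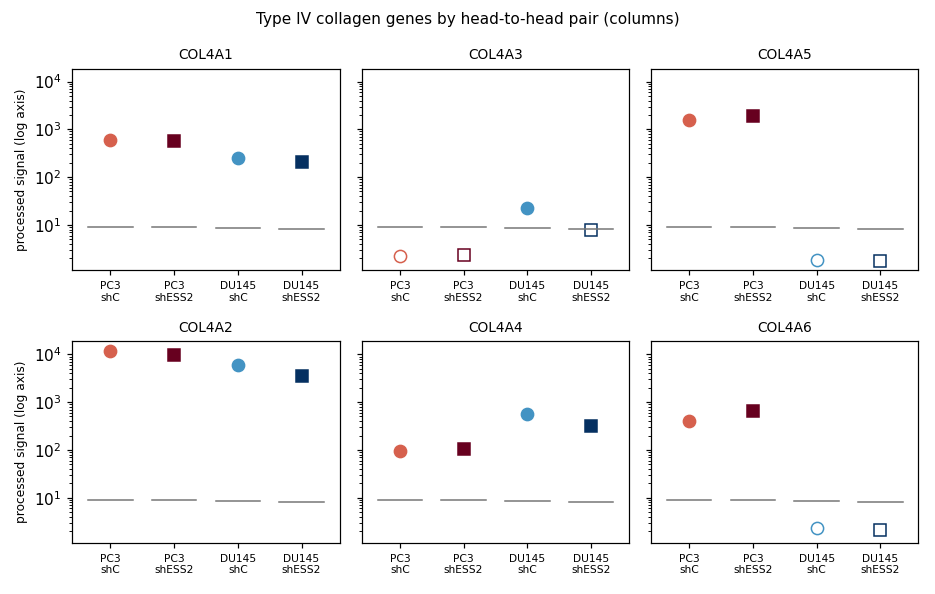
Processed signal (y axis, log scale) of the 6 type IV collagen genes on the 4 arrays, with the partners of a head-to-head pair in 1 column. Filled marks are well above background, open marks are not, and each grey bar is the lowest signal of any probe detected there. COL4A5 and COL4A6 lie below the bar in DU145, at 1.75 to 2.34, and above it in PC3, at 410 to 1860.

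Between the control cells of both lines, 32 collagen genes could be compared, that is, were detected on the PC3-shC array, the DU145-shC array or both. A 2-fold difference was passed by 21 of them (65.6%), against 42.0% of the 17475 genes compared. Of the collagens, 15 were past 2-fold higher in PC3-shC and 6 past 2-fold lower, while over all genes 22.1% were past 2-fold higher and 19.9% lower. The median log2 ratio was 0.87 for the collagens and 0.12 for all genes. The split depended on the scaling: with the authors' own scaled values, 11 collagens were past 2-fold higher and 8 lower, and the median of all genes moved to -0.33, and with scaling to the median, 19 were higher, 6 lower and the median of all genes was 0.58. COL1A1, COL6A3, COL9A3 and COL15A1 came under 2-fold with the authors' scaled values and with normexp background correction, and COL2A1, COL4A3, COL7A1, COL10A1 and COL21A1 with normexp. Fibroblast markers, summed after scaling, came to 0.60 and 0.43 on the PC3 arrays and 0.26 and 0.32 on the DU145 arrays, with 4, 4, 2 and 2 of 8 detected, and DCN, PDGFRA and THY1 on none. The summed epithelial markers were 588 and 736 in PC3 and 121 and 129 in DU145, with all 5 detected on every array and past 2-fold higher in PC3-shC. The endothelial marker PECAM1 was at least 31.5-fold higher in PC3-shC, while CDH5 and VWF had log2 ratios of 0.40 and -0.57. The part of these markers in the collagen differences was not tested.

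Of the 7 fibrillar genes compared, 4 were past 2-fold (57.1%, against 42.0% of all genes), all higher in PC3-shC, where 22.1% of all genes were. COL2A1, among these 4, was compared through the PC3-shC array alone, which fixed its direction. COL5A1 and COL5A2 encode the chains of type V collagen, which sits in the core of type I fibres and limits their width. COL5A1 read 569 and 1230 on PC3-shC and PC3-shESS2, and 18.0 and 28.8 on DU145-shC and DU145-shESS2, so that the PC3 values lay far above both DU145 values, and the control cells differed 25.5-fold. COL5A2 read 3680 and 1410 in PC3 and 206 and 151 in DU145, a 14.4-fold difference between control cells. COL1A1 was 2.52-fold higher in PC3-shC. COL2A1, the collagen of cartilage, read 32.5 on PC3-shC and was not well above background on the other 3 arrays (2.16, 2.03 and 1.89), at least 3.03-fold higher in PC3-shC than in DU145-shC. COL11A2, COL24A1 and COL27A1 had log2 ratios of -0.37, -0.27 and 0.76, and the sign of the first of these turned when the arrays were scaled to their median and that of COL24A1 with both median and quantile scaling.

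Of the 3 detected genes of type VI collagen, a microfibril that surrounds many cells, COL6A1 and COL6A2 were measured in both lines and were higher in PC3-shC. COL6A1 read 36000 and 44900 in PC3 and 4320 and 6000 in DU145, 6.72-fold higher in the PC3 control cells. COL6A2 read 3210 and 3990 in PC3 and 245 and 373 in DU145, a difference of 10.6-fold. COL6A3 read 23.5 and 38.8 in PC3 and was not well above background in DU145 (2.05 and 1.93), at least 2.19-fold higher in PC3-shC. Its direction was fixed by detection in PC3 alone. COL6A1 and COL6A2 kept their direction with each of the 4 other ways of scaling and background correction. COL6A3 has a probe that was well above background on no array, and averaging its probes turned the log2 ratio to -0.24.

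The short-chain collagens differed in opposite directions between the lines. COL8A1 and COL8A2 encode the chains of type VIII collagen, known from the membrane under the corneal endothelium and from vessel walls. COL8A1 read 698 and 361 in PC3 and 21.0 and 9.66 in DU145, the last not well above background, and was 26.8-fold higher in PC3-shC. COL8A2 by its brightest probe read 5.46 and 3.14 in PC3, not well above background, and 191 and 202 in DU145, at least 26.5-fold lower in PC3-shC. Its other probe was detected on PC3-shC and gave a smaller measured difference, 18.3 and 8.99 in PC3 and 47.9 and 49.3 in DU145, 3.25-fold lower, so the bound holds for the brightest probe and not for the gene. COL8A1 was thus higher in PC3 and COL8A2 in DU145, the latter by both probes. COL10A1, the collagen of cartilage that is turning to bone, read 17.2 and 19.3 in PC3 and 42.6 and 46.6 in DU145, 3.07-fold lower in PC3-shC.

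Both multiplexins, basement membrane collagens that carry sugar chains, were past 2-fold and differed in direction. COL18A1, the source of the fragment endostatin, read 2370 and 1060 in PC3 and 11900 and 20000 in DU145, 6.23-fold lower in PC3-shC. COL15A1 read 24.8 on PC3-shC and was not well above background on the others (6.32, 3.16 and 1.85), at least 2.31-fold higher in PC3-shC than in DU145-shC. Its direction was fixed by detection on PC3-shC alone. COL13A1, a transmembrane collagen of cell junctions, read 4720 and 2340 in PC3 and 660 and 478 in DU145, 5.77-fold higher in PC3-shC. COL7A1, which makes the anchoring fibrils that tie epidermis to dermis, read 150, 166, 35.2 and 44.7 on the 4 arrays, a log2 ratio of 1.78 between control cells.

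Of the 8 FACIT genes compared, 3 were past 2-fold (37.5%), near the 42.0% of all genes. COL16A1 read 664 and 565 in PC3 and 79.1 and 141 in DU145, 6.77-fold higher in PC3-shC. COL9A3, a chain of the type IX collagen of cartilage, read 387 and 741 in PC3 and 148 and 156 in DU145, 2.11-fold higher in PC3-shC. COL21A1 read 41.6 and 58.4 in DU145 and was not well above background in PC3 (8.56 and 3.93), at least 5.77-fold lower in PC3-shC. The other 5 had log2 ratios from -0.63 for COL12A1 to 0.62, the latter a bound for COL9A1. As a group the FACIT genes had no steady direction, 3 higher and 5 lower here, but 5 higher and 3 lower with the arrays scaled to the median or by quantiles.

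**Figure D3:**
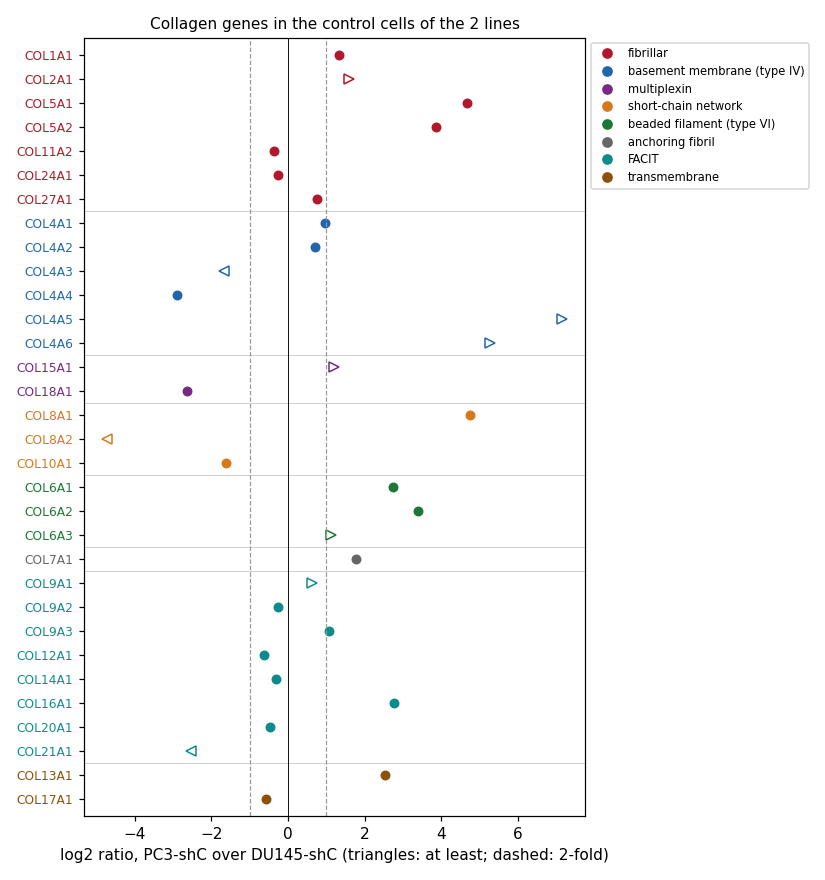
Log2 ratio of PC3-shC over DU145-shC (x axis) for the 32 collagen genes compared, coloured by class, with dashed lines at 2-fold. Points are measured on both arrays, and open triangles are bounds that point towards the larger difference. The ratios ran from a bound of -4.73 for the brightest COL8A2 probe to a bound of 7.16 for COL4A5. All 3 type VI genes lie to the right of the 2-fold line, COL6A3 as a bound whose direction was fixed by the filter.

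When the 4 arrays were fitted together by limma, with cell line and knockdown as terms and 1 residual degree of freedom, 21 of the 30 collagen genes tested differed between PC3 and DU145 at an adjusted p under 0.05, against 52.3% of the 17126 genes tested. Of these 21 genes, 16 were higher and 5 lower in PC3, a split that became 13 and 10 with the authors' scaled values. COL4A5, COL4A6 and COL6A3, detected in PC3 alone, and COL8A2 and COL21A1, detected by their brightest probe in DU145 alone, are among the 21, and their direction was fixed by the filter, since they entered the fit through 1 line with the other at the raised floor. Among genes detected on all 4 arrays, 15 of 22 collagens and 7749 of 14686 genes passed. In this fit both shRNA groups of a line stand in for replicates, and the slide cannot be separated from the line. COL5A1 differed by 4.84 on the log2 scale (SE 0.20, limma adjusted p = 0.00154), COL5A2 by 3.33 (SE 0.32, adjusted p = 0.0052) and COL6A1 by 2.62 (SE 0.19, adjusted p = 0.00325). COL8A1 differed by 4.78 (SE 0.18, adjusted p = 0.00137) and, in the other direction, COL18A1 by -3.64 (SE 0.54, adjusted p = 0.0116) and COL4A4 by -2.48 (SE 0.27, adjusted p = 0.00638). COL4A1 and COL4A2, short of 2-fold between the control arrays, passed as well, at 0.997 (SE 0.18, adjusted p = 0.0169) and 0.87 (SE 0.20, adjusted p = 0.0302), as did COL27A1 at 0.72 (SE 0.18, adjusted p = 0.036). COL9A1, COL9A2, COL11A2, COL12A1, COL14A1, COL17A1, COL20A1, COL24A1 and COL26A1 did not pass.

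Several probes were printed for 11 collagen genes, and for 8 of them more than 1 probe could be compared between the control cells. For 7 of these 8 genes the probes gave the same direction. COL27A1 was the exception. Its brighter probe read 385 and 360 in PC3 and 183 and 169 in DU145, a log2 ratio of 0.76, and its other probe read 19.8 and 21.4 in PC3 and 315 and 326 in DU145, a log2 ratio of -4.30. Both COL27A1 probes were well above background on all 4 arrays, so that the line difference of this gene has no single direction here, including in the fit above. The COL16A1 probes gave 2.76 and 0.79, the COL8A2 probes -4.73 as a bound and -1.70, the COL5A1 probes 4.67 and 2.31, the latter a bound, and the COL12A1 probes -0.63 and -1.80. The COL6A2 probes lay close together, at 3.40 and 3.82.

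In PC3, 30 collagen genes could be compared by their brightest probe between ESS2 knockdown and control cells. A 2-fold difference was passed by 7 (23.3%), against 7.75% of the 16764 genes compared. COL9A2 was past 2-fold higher, where 3.88% of all genes were, and COL2A1, COL5A2, COL8A1, COL13A1, COL15A1 and COL18A1 were past 2-fold lower, where 3.87% of all genes were. COL2A1 and COL15A1 were compared through the control array alone, which fixed their direction. The median log2 ratio was -0.14 for the collagens and -0.06 for all genes. With the authors' scaled values 3 collagens were past 2-fold higher and 6 lower, and with scaling to the median 0 were higher and 6 lower. With normexp background correction 3 in all were past 2-fold, COL5A2, COL13A1 and COL18A1. The PC3-shC array also enters the comparison of control cells, so the 5 genes COL2A1, COL5A2, COL8A1, COL13A1 and COL15A1, higher in PC3-shC than in DU145-shC and lower in PC3-shESS2, share that array in both ratios. On the same arrays the summed fibroblast markers were 0.60 and 0.43, with 4 of 8 detected on each, and DCN, PDGFRA and THY1 on none. Within that list ACTA2 was 2.37-fold lower, PDPN at least 4.43-fold lower and LUM 4.47-fold higher in PC3-shESS2. The summed prostate luminal markers were 1.504 and 0.924, with 3 of 5 detected on each and TMPRSS2 2.67-fold lower. The summed endothelial markers were 1.57 and 0.35, with 3 of 4 detected on each. PECAM1 alone carried that difference, from 338 to 16.4, as CDH5 and VWF had log2 ratios of 0.03 and 0.18. The summed leukocyte markers were 1.11 and 0.43, with 2 of 4 detected on each, CD14 from 221 to 54.7 and PTPRC at a log2 ratio of -0.13. The part of these markers in the collagen ratios was not tested.

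Of the 7 fibrillar genes compared, 2 were past 2-fold (28.6%, against 7.75% of all genes), both lower in PC3-shESS2 cells, where 3.87% of all genes were. Of the 6 detected on both arrays, 5 lay below the control, where 55.7% of all genes compared did (65.1% with scaling to the median). The other gene, COL2A1, was compared through the control array alone, which fixed its direction. COL5A2 went from 3680 to 1410, which is 2.88-fold lower. COL2A1 went from 32.5 to 2.16, not well above background, at least 3.97-fold lower, and it came under 2-fold with normexp. COL1A1 had a log2 ratio of -0.57. The other type V gene, COL5A1, was the single fibrillar gene with a higher signal, from 569 to 1230 (log2 ratio 0.97), and its other probe read 53.1 and 224 (1.94). COL5A1 and COL5A2, the pair of type V genes, thus had ratios of opposite sign between the PC3 arrays, with no replicate array to test either. COL11A2 counts among the lower genes by its brightest probe (-0.31), while its other probes gave 0.30 and 0.16. COL11A2 turned to 0.05 with normexp background correction.

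Of the multiplexins, COL18A1 went from 2370 to 1060 in PC3-shESS2 cells, 2.47-fold lower. COL15A1 went from 24.8 to 6.32, not well above background, at least 3.03-fold lower, and it came under 2-fold with normexp. It was compared through the control array alone, which fixed its direction. The transmembrane COL13A1 went from 4720 to 2340, 2.22-fold lower, and COL8A1 from 698 to 361, 2.13-fold lower. COL8A1 fell short of 2-fold with quantile normalization (-0.98) and with normexp. The type IV genes stayed within 2-fold in PC3, from -0.45 for COL4A2 to 0.53 for COL4A6, and the type VI genes lay between 0.17 and 0.58. COL7A1, COL10A1 and COL17A1 lay at 0.005, 0.03 and -0.32, the first pair within the spread between spots. COL8A2 was dim on both PC3 arrays by its brightest probe, and its other probe went from 18.3 to 8.99, not well above background, at least 2.24-fold lower. COL26A1 went from 8.39, not well above background, to 19.0, at least 1.93-fold higher, and its ratio was near 0 with normexp.

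Of the 7 FACIT genes compared in PC3, 1 was past 2-fold (14.3%, against 7.75% of all genes), and it was higher, as 3.88% of all genes were. Above the control lay 5 of 7, where 44.3% of all genes did, with a median log2 ratio of 0.68 that was 0.09 with normexp. COL9A2, a type IX chain, went from 48.8 to 115, 2.14-fold higher, and came under 2-fold with median scaling, quantile normalization and normexp. COL9A3, COL12A1 and COL14A1 had log2 ratios of 0.80, 0.73 and 0.68. The other COL12A1 probe went from 25.6 to 83.2, a log2 ratio of 1.56. COL16A1 had 1 probe at -0.37 and another at 0.43, and so no single direction.

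In DU145, 28 collagen genes were compared and 3 were past 2-fold (10.7%), against 4.83% of the 16842 genes compared. COL19A1 was past 2-fold higher, where 2.36% of all genes were, and COL4A3 and COL8A1 were past 2-fold lower, where 2.47% of all genes were. The median log2 ratio was 0.04 for the collagens and -0.02 for all genes. All 3 differences are bounds, since 1 of the arrays was not well above background in each, and this fixed their direction. COL19A1, a FACIT, went from 2.29 to 20.2, at least 2.27-fold higher, by 1 of its 3 probes, the others being dim on every array. COL4A3 went from 22.8 to 7.69, at least 2.88-fold lower, and COL8A1 from 21.0 to 9.66, at least 2.24-fold lower. No collagen gene that was well above background on both DU145 arrays was past 2-fold, and with normexp background correction the count was 0.

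The 3 type IV genes detected on both DU145 arrays, COL4A1, COL4A2 and COL4A4, had lower signals in the knockdown cells, as 52.8% of all genes compared did. They kept that direction with each of the 4 other ways of scaling and background correction. COL4A2 went from 5990 to 3510 (-0.81), COL4A4 from 564 to 322 (-0.85) and COL4A1 from 250 to 209 (-0.30). COL4A5 and COL4A6 were not well above background in DU145 and could not be compared. The type VI genes COL6A1 and COL6A2 had log2 ratios of 0.43 and 0.57, COL16A1 of 0.79, and COL5A1 of 0.64 (18.0 and 28.8). The remaining collagens compared in DU145, COL18A1 apart, lay between -0.51 for COL13A1 and 0.63 for COL14A1. COL18A1 went from 11900 to 20000, a log2 ratio of 0.71, where in PC3 it was -1.30. That difference between the lines was not tested. In DU145, control cells first, the summed markers were 121 and 129 for epithelial (all 5 detected), 0.26 and 0.32 for fibroblast (2 of 8 detected), 0.29 and 0.33 for endothelial (2 of 4 detected), and 0.99 and 1.49 for leukocyte genes (2 and 3 of 4 detected). Within the epithelial list EPCAM was 6.11-fold lower and CLDN4 4.67-fold higher in the knockdown cells. The part of these markers in the collagen ratios was not tested.

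**Figure D4:**
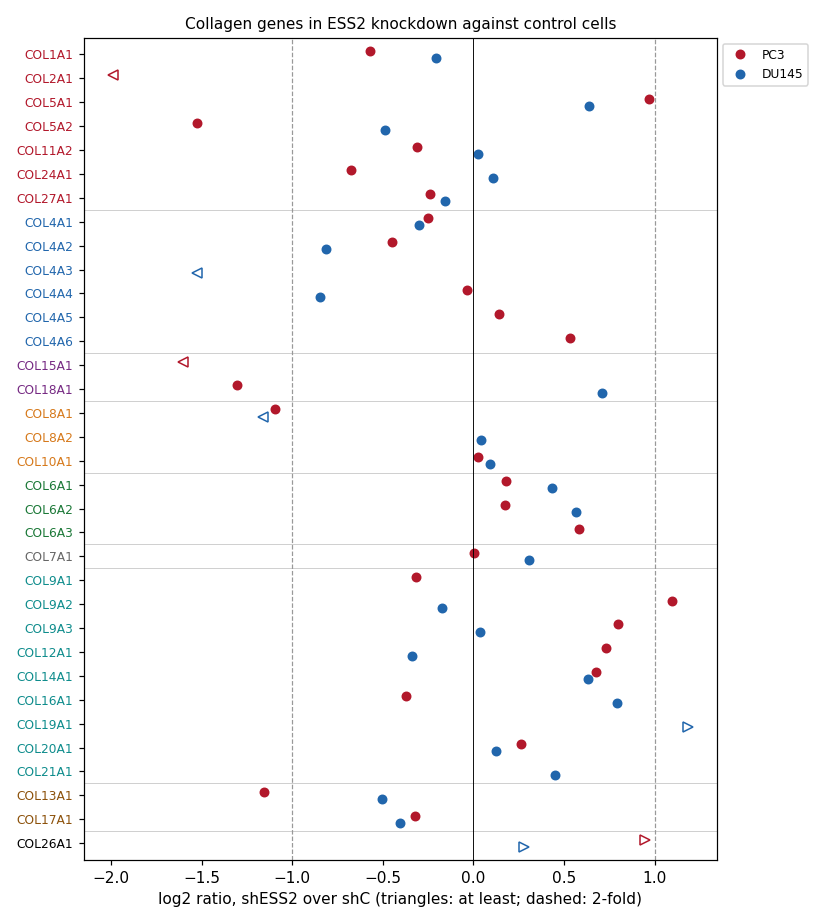
Log2 ratio of ESS2 knockdown over control (x axis) in PC3 (red) and DU145 (blue) for the 34 collagen genes compared in at least 1 line, with gene names coloured by class and dashed lines at 2-fold. Open triangles are bounds that point towards the larger difference. COL8A1 lies past 2-fold lower in both lines, in DU145 as a bound, and COL18A1 lies at -1.30 in PC3 and 0.71 in DU145.

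Among the 22 collagen genes well above background on all 4 arrays, 8 were higher in the knockdown cells of both lines, 8 were lower in both and 6 differed in direction. Thus 72.7% had the same sign, against 57.3% of 14686 genes measured on all 4 arrays. That share depends on small ratios and on the scaling. For instance, COL7A1 and COL10A1, counted as higher in both lines, turned in PC3 with median scaling (-0.10 and -0.08). COL4A4, counted as lower in both, turned in PC3 with the authors' scaled values (0.05). COL11A2, counted as differing, turned in PC3 with normexp (0.05). The probes of COL11A2, COL16A1 and COL27A1 differ in sign in at least 1 line. COL8A1 was past 2-fold lower in both lines, in DU145 as a bound whose direction was fixed by detection on the control array alone. In the limma fit over both lines, none of the 30 collagen genes tested passed an adjusted p of 0.05, where 0.0% of the 17126 genes did. The lowest adjusted p over all genes was 0.746. At an unadjusted p under 0.05 the fit held 6 collagens, where 6.11% of all genes were, and the number ranged from 0 without the cell line as a block to 7 over the settings tried. These 6 were COL8A1 at -1.13 on the log2 scale (SE 0.18, adjusted p = 0.746), COL5A2 at -1.01 (SE 0.32), COL13A1 at -0.83 (SE 0.24) and COL4A2 at -0.63 (SE 0.20) on the lower side, and COL5A1 at 0.80 (SE 0.20) and COL14A1 at 0.66 (SE 0.18) on the higher side. A fit over 1 pair of lines favours genes whose ratios agree, so their shared sign is no further evidence.

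Of the genes in 7 lists that act on or bind collagens, 10 of 69 compared (14.5%) were past 2-fold in PC3 knockdown, against 7.75% of all genes, and 6 of 62 (9.68%) in DU145, against 4.83%. These lists are described by their counts and were not tested. Of 18 genes for modification and folding of the chains, 17 were compared in PC3 and 1 was past 2-fold (5.88%), P3H3, a member of the collagen prolyl hydroxylase family (log2 ratio -1.13). In DU145 all 18 were compared and 1 was past 2-fold (5.56%), its relative P3H1 (1.002). Both shares are near those of all genes. Of 16 genes for secretion and procollagen processing, 12 were compared in PC3 and 1 (8.33%, against 7.75% of all genes) was past 2-fold. This was the procollagen protease ADAMTS14, lower (-1.42). In DU145 10 were compared and 2 (20.0%, against 4.83%) were past 2-fold. The coat protein SEC24D (1.15) and the procollagen C-proteinase BMP1 (1.32) were both higher.

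Of 7 cross-linking enzymes, all were compared in PC3 and 2 were past 2-fold (28.6%, against 7.75% of all genes), and 6 in DU145 with 1 past it (16.7%, against 4.83%). LOX, which starts the covalent joining of collagen molecules, was past 2-fold higher in both lines. It read 52.6 and 187 in PC3 and 21.7 and 80.7 in DU145, log2 ratios of 1.69 and 1.85. Both knockdown arrays lay above both control arrays. LOXL2, an enzyme that cross-links type IV collagen, was past 2-fold lower in PC3 (-1.19). PXDN, which forms the sulfilimine link of type IV collagen, read 19100 and 20800 in PC3 and was not well above background in DU145 (1.79 and 1.68), at least 1780-fold higher in PC3-shC.

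Of 10 collagen receptors, 8 were compared in each line and 0 were past 2-fold. Of 14 collagen-degrading proteases, 11 were compared in PC3 and 3 (27.3%, against 7.75% of all genes) were past 2-fold, with the collagenase MMP13 (1.88) and the membrane-bound MMP16 (at least 2.54-fold) past 2-fold higher and MMP10 past 2-fold lower (-1.19), and 8 in DU145, where 1 (12.5%, against 4.83%) was past 2-fold, the collagenase MMP1 at -1.26. Proteins that bind collagens were counted too. Of 10 partners of fibrillar collagen, 6 were compared in PC3 and 2 (33.3%, against 7.75% of all genes) were past 2-fold. LUM was higher (2.16), from 9.9 to 48.8, where the lowest detected signal on PC3-shC was 8.94. SPARC went from 121 to 6.14 and was at least 14.8-fold lower. In DU145 4 were compared, with 0 past 2-fold. Of 8 basement membrane partners, all were compared and 1 (12.5%) was past 2-fold in each line, against 7.75% of all genes in PC3 and 4.83% in DU145. This was NID2, which ties type IV collagen to laminin. It was higher in both lines, from 12.3 to 55.9 in PC3 and from 235 to 486 in DU145. LUM, SPARC, NID2 and PXDN were named after their values were seen. Genes of the lists were counted with the main processing alone.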

How the data were processed

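The submitters' files hold 1 Cy3 Agilent array per group. The authors deposited the scanner output of Agilent Feature Extraction (12.1.0.3 for the PC3 slide, 12.0.3.1 for the DU145 slide, array grid on GRCh37), whose intensity values had local background and spatial trend removed and were not scaled between arrays. They also deposited a table of scaled intensity values, each column being the processed signal times 1 constant, used here as an alternative. The paper's methods name GeneSpring without settings. Columns of the authors' own comparisons were not used.

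The members and gene lists were chosen with earlier results of these data known. Control spots and outlier spots were dropped, log2 was taken after division by the 75th percentile of the array, repeated spots were averaged, and a gene was represented by its brightest probe over 4 arrays. Genes detected (well above background) on 1 or both arrays of a pair were compared. For a dim value the lowest signal of any detected probe was put in, unless its own was higher, and the ratio is then a bound. Genes dim on both arrays have no fold. All 57 collagen probes carry the same accession in both annotation releases, and symbols and promoters came from RefSeq tables of GRCh38.p14.

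Differences past 2-fold were counted without a p-value. limma 3.58.1 (R 4.3.3) was fitted on 4 arrays over genes detected on at least 2, with Benjamini-Hochberg adjustment over all genes tested at 0.05. Every collagen gene could be named, with values on each array for those past 2-fold or called, and genes of the pathway lists when past 2-fold in a knockdown. Alternatives were quantile normalization, scaling to the array median, normexp (offset 50, on the median spot signal), the authors' scaled values, other filters on dim genes, other uses of several probes and outlier spots kept. The plain signal of dim spots in the limma fits was chosen after seeing the data. Python 3.11.15, numpy 2.4.6, pandas 2.3.3 and matplotlib 3.10.9 were used, and the calculations were tested on simulated data.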

Additional observations from a re-analysis of the deposited data

Results flagged for a closer look

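COL9A2 and COL18A1 had ratios of opposite sign in the 2 lines on ESS2 knockdown, with at least 1 of the ratios past 2-fold and both arrays of each line well above background. The log2 ratio of COL9A2 was 1.10 in PC3 and -0.17 in DU145, the latter within the spread between spots at such dim signals (median SD 0.246 where the dimmer array read under 50), so that its sign in DU145 is unsettled. The log2 ratio of COL18A1 was -1.30 in PC3 and 0.71 in DU145. Each value rests on 1 array per group, and the difference between the lines was not tested. In PC3, COL18A1 stayed past 2-fold under every alternative run (-1.41 to -1.17), whereas COL9A2 ranged from 0.52 to 1.19.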

How the results depend on the processing

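The count of collagens past 2-fold in PC3 knockdown was 7, and 3 with normexp background correction, with 5 to 10 under the other alternatives. In DU145 knockdown it was 3, and 0 both with normexp and among genes detected on both arrays, with 2 to 3 otherwise. Between control cells it was 21, and 12 with normexp and 13 among genes detected on both arrays, with 19 to 27 otherwise. The filter on both arrays leaves out the genes whose ratio is a bound. With it, 18.5% of the collagens compared were past 2-fold in PC3, 0.0% in DU145 and 56.5% between control cells. Of all genes, 6.65, 3.44 and 37.8% were. For normexp the cause of the drop was not tested. The share of all genes past 2-fold fell with normexp too, to 3.41% in PC3, 1.28% in DU145 and 29.0% between control cells, where the collagens were at 10.0, 0.0 and 37.5%. Of the single genes past 2-fold, 3 of 7 in PC3 (COL5A2, COL13A1 and COL18A1), 0 of 3 in DU145 and 11 of 21 between control cells were past it under every alternative that gave them a value. The filter on both arrays gives none for COL4A5, COL4A6 and COL8A2, which are among the 11. With the mean of a gene's probes, COL19A1 in DU145 knockdown turned to -0.73 and COL6A3 between control cells to -0.24, both genes having other probes that were dim on every array. No other value of these genes changed direction. The limma fit called 15 to 23 collagens between the lines and 0 for knockdown under every setting, and leaving out the cell line as a block left 0 collagens at an unadjusted p under 0.05. Leaving out 1 array leaves no residual degree of freedom and gives the other line's ratio as a value with no test. The limma fit takes the cell line as a block. No paired analysis was possible because the labels give no replicate numbers, beyond that pairing of arrays within a line. Signals near background limit the dim genes, for which bounds are given.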
